A study of Drosophila melanogaster with 6 samples.

Results

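The nuclear valine tRNAs are described here, defined as the rows of the deposited table that are marked nuclear and whose isodecoder name starts with Val. They were 5 of the 84 nuclear isodecoders and of the 106 tRNAs in the table: Val-AAC-1-X, Val-AAC-2-X, Val-CAC-1-1, Val-CAC-2-X and Val-TAC-1-X. An isodecoder is a set of tRNA genes with the same mature sequence, the letters give the anticodon with T written for U, and a final X marks an isodecoder with more than 1 gene. tRNAs were quantified with hydro-tRNAseq, in which the tRNA is partly hydrolyzed into fragments before adaptors are ligated. Neuroblast-biased RNA came from 3 samples of whole L3 larval brains in which insc-Gal4 drove UAS-aPKC_caax, a membrane-targeted atypical protein kinase C, in neuroblasts, the neural stem cells of the fly. This drives symmetric self-renewing divisions, so that the brains hold many ectopic neuroblasts and few neurons. Neuron-biased RNA came from 3 samples of whole L3 brains of the Oregon R wild type, which are mostly neurons but also hold neuroblasts and glia, and which carry neither the driver nor the transgene. Larvae of both groups were kept at 25 °C per the labels. The labelled cell types could not be checked against marker genes, because the table holds tRNAs alone.

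The authors deposited 1 mean TMM value per group for each tRNA, a read count normalized by the trimmed mean of M-values and corrected for batch. Values per sample were not analysed here, so no spread between replicates can be set beside any difference and no test between the groups was possible. Every ratio below is a description of a pair of means, and the read depth behind them is unknown. The log2 ratio is neuroblast-biased over neuron-biased throughout. Its median over the 84 nuclear isodecoders was −0.27, and 57 of them had a lower mean in neuroblast-biased brains, so ratios relative to this median are given where they alter the picture. In whole brains, fewer cells of a type and less tRNA per cell cannot be told apart.

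Valine is read from a box of 4 codons that differ only in the third base. In flies, as in other eukaryotes, the adenosine at the first anticodon position (position 34, hence A34) of Val-AAC is deaminated to inosine, which pairs with GUU, GUC and, poorly, GUA. Val-TAC carries a uridine at that position (U34), which reads GUA and can wobble onto GUG, and Val-CAC carries a cytidine (C34), which reads GUG alone. The balance of Val-AAC to Val-CAC therefore sets the supply for codons ending in a pyrimidine against the supply for GUG.

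The major GUU-reading isodecoder, Val-AAC-2-X, was higher in neuroblast-biased brains, whereas both Val-CAC isodecoders, which read GUG, were lower, on the values as deposited and relative to the nuclear median alike. Val-AAC-2-X had a mean TMM of 215209 in neuroblast-biased brains and 169735 in neuron-biased brains, a log2 ratio of 0.34. Val-AAC-1-X, the minor isodecoder with the same anticodon, had 15953 in neuroblast-biased brains and 11833 in neuron-biased brains, a log2 ratio of 0.43. The ratios of these isodecoders were the 13th and the 10th highest of the 84 nuclear isodecoders, of which 27, or 32.1%, were higher in neuroblast-biased brains.

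Val-CAC-2-X, the major reader of GUG, averaged 175026 in neuroblast-biased brains and 239566 in neuron-biased brains, a log2 ratio of −0.45. Val-CAC-1-1 averaged 44221 in neuroblast-biased brains and 64324 in neuron-biased brains, a log2 ratio of −0.54. Both Val-CAC ratios lay below the nuclear median, at −0.19 for Val-CAC-2-X and −0.27 for Val-CAC-1-1 relative to it. They were only the 31st and the 25th lowest of the 84 nuclear isodecoders. Val-TAC-1-X, the sole isodecoder with its anticodon, averaged 130657 in neuroblast-biased brains and 152055 in neuron-biased brains. Its log2 ratio of −0.22 was close to the nuclear median, and relative to that median it turned to 0.05.

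**Figure D1:**
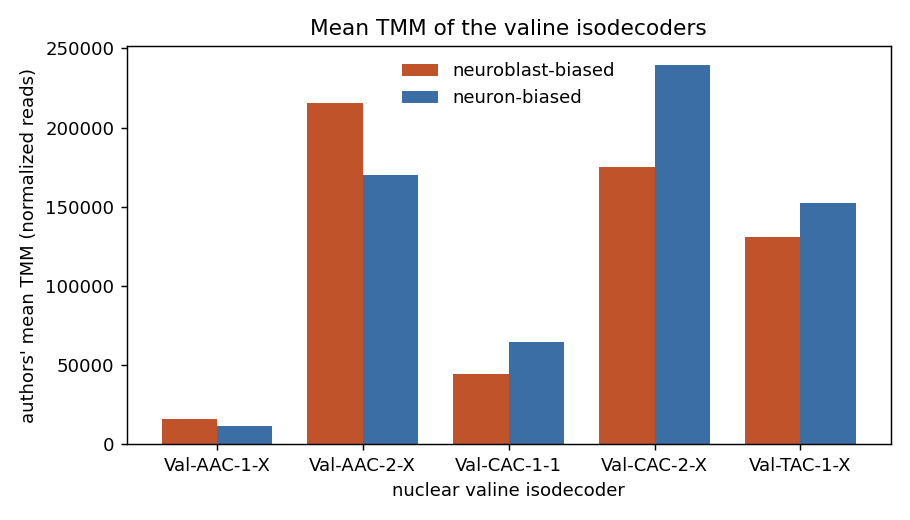
Authors' mean TMM (normalized reads, 1 mean per group, without error bars because the values are means alone) of each nuclear valine isodecoder in neuroblast-biased and neuron-biased brains. Both Val-AAC isodecoders have the taller bar in neuroblast-biased brains, while both Val-CAC isodecoders and Val-TAC-1-X have the taller bar in neuron-biased brains (relative to the nuclear median, Val-TAC-1-X turns to a log2 ratio of 0.05).

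The order of the isodecoders by level differed at the top between the groups. In neuroblast-biased brains Val-AAC-2-X was the most abundant valine isodecoder, with rank 21 among the 84 nuclear isodecoders, ahead of Val-CAC-2-X at rank 25 and Val-TAC-1-X at rank 31. In neuron-biased brains Val-CAC-2-X led at rank 23, ahead of Val-AAC-2-X at rank 29 and Val-TAC-1-X at rank 30. Val-CAC-1-1 held rank 50 in both groups. Val-AAC-1-X was the least abundant of the 5, at rank 59 in neuroblast-biased brains and rank 63 in neuron-biased brains. Whether neighbors in these orders differ beyond replicate error could not be assessed.

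A log2 ratio of at least 0.5 in size was used as a fold threshold, with no test behind it. On the values as deposited, 1 of the 5 valine isodecoders, Val-CAC-1-1, was lower by this much, against 33.3% of all nuclear isodecoders, and none was higher, against 8.33%. With the nuclear median set to 0 the picture turned, and none was lower, against 14.3% of all nuclear isodecoders. On that scale 2 of the 5, Val-AAC-1-X at 0.70 and Val-AAC-2-X at 0.61, were higher, against 20.2%. The number and direction of valine isodecoders past the threshold thus rested on the scaling between the groups, whereas the distance between the Val-AAC and the Val-CAC isodecoders did not.

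**Figure D2:**
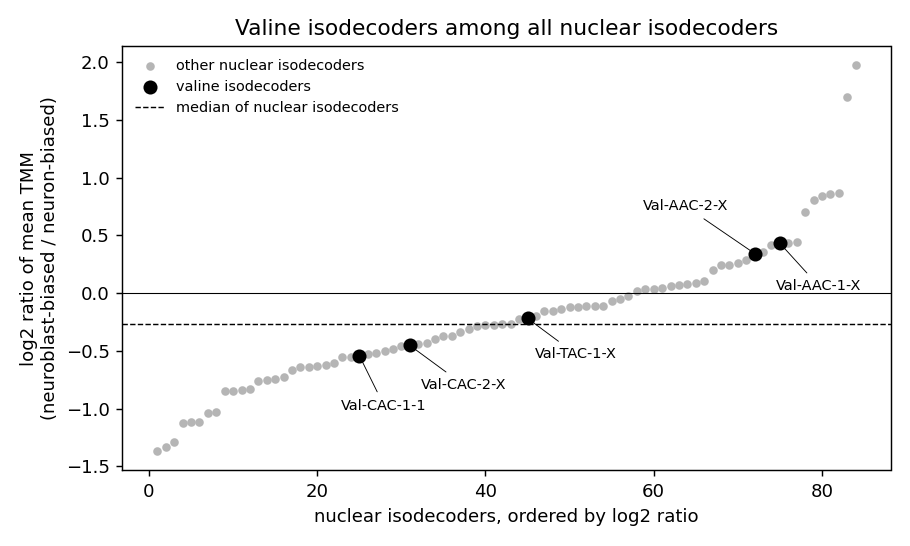
Log2 ratio of mean TMM (neuroblast-biased over neuron-biased) of the 84 nuclear isodecoders in ascending order, with the 5 valine isodecoders in black, a solid line at 0 and a dashed line at the nuclear median of −0.27. Val-AAC-1-X and Val-AAC-2-X sit near the upper end, Val-TAC-1-X just above the median line, and Val-CAC-2-X and Val-CAC-1-1 below it.

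Isodecoders with the same anticodon had nearly the same log2 ratio. The gap was 0.089 between Val-AAC-1-X and Val-AAC-2-X and 0.088 between Val-CAC-1-1 and Val-CAC-2-X. Across the 26 anticodon groups with more than 1 isodecoder the median range was 0.55, and the Val-CAC and Val-AAC groups had the 2nd and 3rd smallest range. In 16 of these 26 groups all isodecoders had a ratio of the same sign. As multi-mapped reads were split between references, isodecoders with similar sequences can share reads, and their values are uncertain to that extent. The part of shared reads in these small gaps was not tested.

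Because the isodecoders of an anticodon differed by nearly the same ratio, the makeup of each anticodon pool hardly differed. Val-AAC-2-X made up 93.1% of the summed Val-AAC TMM in neuroblast-biased brains and 93.5% in neuron-biased brains, and Val-AAC-1-X made up 6.90% in neuroblast-biased brains and 6.52% in neuron-biased brains. Val-CAC-2-X made up 79.8% of the Val-CAC pool in neuroblast-biased brains and 78.8% in neuron-biased brains, and Val-CAC-1-1 made up 20.2% in neuroblast-biased brains and 21.2% in neuron-biased brains. Val-TAC-1-X is the only isodecoder of its pool.

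The makeup of the whole valine pool differed more. Val-AAC held 39.8% of the summed valine TMM in neuroblast-biased brains and 28.5% in neuron-biased brains, a difference of 11.3 percentage points. Val-CAC held 37.7% in neuroblast-biased brains and 47.7% in neuron-biased brains, a difference of −9.94 percentage points. The share of Val-TAC was 22.5% in neuroblast-biased brains and 23.9% in neuron-biased brains, a difference of −1.37 percentage points. Most of the contrast lay in the major isodecoders, as Val-AAC-2-X differed by 10.4 percentage points of the valine pool and Val-CAC-2-X by −7.46. The minor ones added 0.89 for Val-AAC-1-X and −2.48 for Val-CAC-1-1. These shares do not depend on how the groups were scaled, but they do depend on summing. With isodecoders averaged, as in the codon weights below, Val-TAC took 36.7% in neuroblast-biased brains and 38.5% in neuron-biased brains and was the largest of the 3 pools in both, in neuron-biased brains by a margin over Val-CAC that is lost in rounding.

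**Figure D3:**
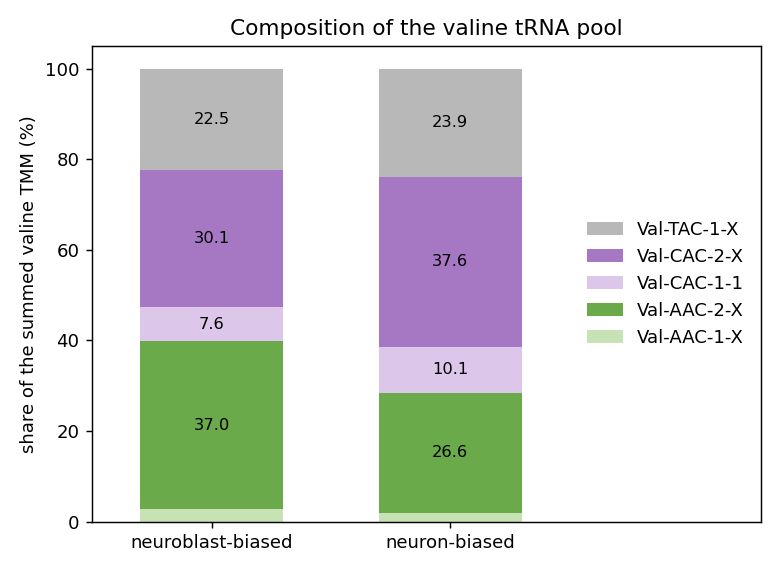
Share of each isodecoder in the summed valine TMM (%) in neuroblast-biased and neuron-biased brains, stacked with Val-AAC at the bottom (green), Val-CAC in the middle (purple) and Val-TAC on top (gray). The Val-AAC part takes 39.8% of the neuroblast-biased bar and 28.5% of the neuron-biased bar, and the Val-CAC part 37.7% of the neuroblast-biased bar and 47.7% of the neuron-biased bar.

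The summed TMM of Val-AAC was 231162 in neuroblast-biased brains and 181568 in neuron-biased brains. That of Val-CAC was 219246 in neuroblast-biased brains and 303890 in neuron-biased brains. The ratio of Val-AAC to Val-CAC was therefore 1.05 in neuroblast-biased brains and 0.597 in neuron-biased brains, so that the Val-AAC pool was slightly larger than the Val-CAC pool in neuroblast-biased brains and smaller in neuron-biased brains. On the log2 scale the balance was 0.08 in neuroblast-biased brains and −0.74 in neuron-biased brains, a difference of 0.82, or 1.76-fold. Leaving out the minor isodecoder of each anticodon gave 0.80.

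The valine family as a whole differed little. All 5 isodecoders summed to 581065 in neuroblast-biased brains and 637512 in neuron-biased brains, a log2 ratio of −0.13, or 0.13 relative to the nuclear median. On the values as deposited, the higher Val-AAC mean in neuroblast-biased brains (49594) offset 46.8% of the lower Val-CAC and Val-TAC means (106041 together). This percentage rests on the scaling between the groups. Relative to the nuclear median the log2 ratio was 0.62 for Val-AAC, −0.20 for Val-CAC and 0.05 for Val-TAC, which was then not lower. Valine tRNAs took 4.32% of the summed nuclear TMM in neuroblast-biased brains and 3.85% in neuron-biased brains. This placed them 11th in both groups among 22 sets, the standard amino acids plus initiator methionine and selenocysteine.

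The valine balance was set beside that of other amino acids read by an A34 and a C34 tRNA in the same codon box. Such pairs were found for alanine, leucine, proline, serine and threonine. For arginine the table holds no C34 counterpart of Arg-ACG. The difference in log2 balance, 0.82 for valine, was 0.93 for serine, 0.10 for leucine and 0.06 for proline. It was −0.20 for threonine and −0.35 for alanine. Serine and valine thus had the largest differences of the 6. Averaging the log2 ratios of isodecoders in place of summing their TMM gave 0.57 for serine and 0.88 for valine, which turns their order. It also gave −0.42 for threonine and −0.00018 for proline, whose sign turned. The serine A34 pool exceeded its C34 pool 22.5-fold in neuroblast-biased brains and 11.8-fold in neuron-biased brains. Ser-CGA had a mean TMM of only 30296 in neuroblast-biased brains and 47351 in neuron-biased brains. The valine pools were of similar size in neuroblast-biased brains, with a ratio of 1.05, but not in neuron-biased brains, with 0.597. The pair thus changed order between the groups, by a small margin in neuroblast-biased brains that has no replicate error beside it. The threonine pair also changed order, with an A34 to C34 ratio of 0.902 in neuroblast-biased brains and 1.03 in neuron-biased brains.

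**Figure D4:**
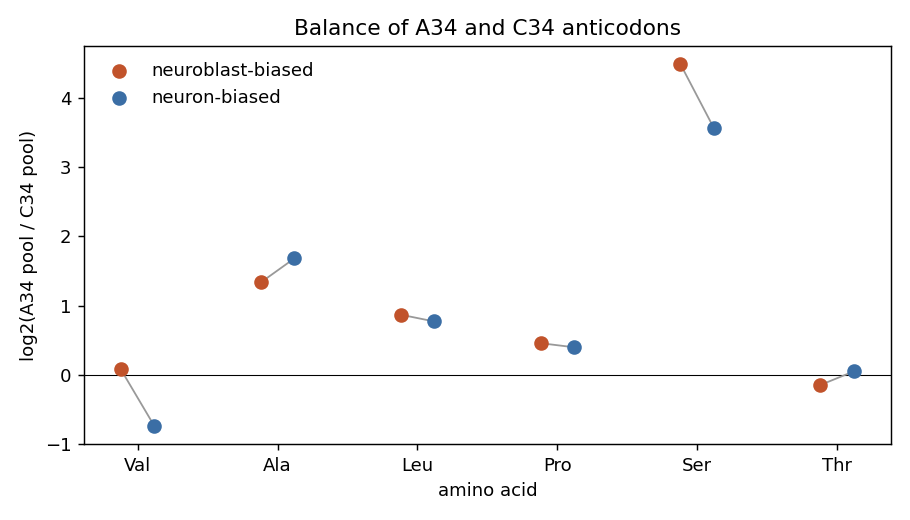
Log2 ratio of the summed TMM of the A34 anticodon over that of the C34 anticodon of the same codon box, for 6 amino acids in neuroblast-biased and neuron-biased brains, joined by a line. Valine lies at 0.08 in neuroblast-biased and −0.74 in neuron-biased brains, a difference of 0.82, and serine shows a difference of 0.93 on these summed pools (0.57 when log2 ratios of isodecoders are averaged).

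Among all 39 pairs of anticodons of 1 amino acid, irrespective of the first base, the Val-AAC and Val-CAC pair ranked 5th by the size of the difference in log2 ratio. The 4 pairs above it were of serine and leucine. The range over the anticodons of an amino acid was 0.82 for valine, the 3rd largest of 12 amino acids after serine (1.43) and leucine (0.87). On the values as deposited, anticodons lay on opposite sides of 0 for 4 of these 12 amino acids, valine included, and relative to the nuclear median for 5, again including valine. These ranks carry no test.

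In the Drosophila melanogaster assembly Release 6, RefSeq lists 15 nuclear valine tRNA genes, each of 73 bp. Val-AAC-2-X is encoded by 4 genes in 2 pairs. Val-AAC-2-1 and Val-AAC-2-2 lie on chromosome 2R from 19414845 to 19414917 and from 19415271 to 19415343, within the span of hts, which encodes the cytoskeletal protein adducin. Val-AAC-2-3 and Val-AAC-2-4 lie on 3L from 13433048 to 13433120 and from 13433646 to 13433718, within the span of CG10713. Each pair is tight, with 353 bp between the genes on 2R and 525 bp between those on 3L. A serine tRNA gene, Ser-CGA-1-4, lies nearer to Val-AAC-2-1 than its pair partner, 165 bp away. Val-AAC-1-X has 2 genes, both on 3R and far apart. Val-AAC-1-1 runs from 16321690 to 16321762 within the span of Sulf1, an extracellular heparan sulfate 6-O-endosulfatase, and has a phenylalanine tRNA gene 214 bp away. Val-AAC-1-2 runs from 17629086 to 17629158 and does not lie within the span of any other gene listed. Exons and strand were not used here, so positions within these spans were not resolved further.

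All 7 Val-CAC genes lie on 3R. The single gene of Val-CAC-1-1 runs from 17617761 to 17617833, 276 bp from a proline tRNA gene and 11252 bp from Val-AAC-1-2, which is the valine gene nearest to it. Val-CAC-2-X has 6 genes. A cluster of 4 lies between 7451297, the start of Val-CAC-2-1, and 7475975, the end of Val-CAC-2-4. Val-CAC-2-5 (19672277 to 19672349) lies within the span of Naam, a nicotinamidase of NAD metabolism, and Val-CAC-2-6 (19790122 to 19790194) lies 117772 bp further on. The genes of Val-TAC-1-X form a pair on 3L, from 5356343 to 5356415 and from 5356662 to 5356734, with 246 bp between them. Of the 15 genes, Val-AAC thus has 6, or 40.0%, Val-CAC has 7, or 46.7%, and Val-TAC has 2, or 13.3%.

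Level and gene number were not proportional among the valine isodecoders. Per gene, Val-TAC-1-X had the highest mean TMM of the 5, 65329 in neuroblast-biased brains and 76027 in neuron-biased brains. The single gene of Val-CAC-1-1 came with 44221 in neuroblast-biased brains and 64324 in neuron-biased brains, more than the per-gene mean of the 6 genes of Val-CAC-2-X, 29171 in neuroblast-biased brains and 39928 in neuron-biased brains. Val-AAC-2-X had 53802 per gene in neuroblast-biased brains and 42434 in neuron-biased brains. Val-AAC-1-X had only 7976 per gene in neuroblast-biased brains and 5917 in neuron-biased brains, although it shares its anticodon with Val-AAC-2-X. The median over all nuclear isodecoders was 30265 per gene in neuroblast-biased brains and 42713 in neuron-biased brains. A mean over genes does not show which gene of an isodecoder was expressed, since their mature sequences are identical.

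The supply for each of the 4 valine codons was calculated as in the tRNA adaptation index (tAI), which adds the TMM of each tRNA that reads a codon after a penalty for wobble pairs. Isodecoders of an anticodon were averaged, with penalties of 0.28 for inosine reading C and 0.68 for uridine reading G and a penalty close to 1 for inosine reading A. The resulting weight was higher in neuroblast-biased brains for GUU, at 115581 against 90784 in neuron-biased brains, and for GUC, at 83218 against 65364. It was lower in neuroblast-biased brains for GUA, at 130669 against 152064 in neuron-biased brains, and for GUG, at 151433 against 200602. Relative to the nuclear median the log2 ratio of the GUA weight turned to 0.05, as for Val-TAC-1-X. With these penalties GUG had the largest weight in both groups. Wobble by Val-TAC supplied 27.6% of the GUG weight in neuroblast-biased brains and 24.3% in neuron-biased brains. With isodecoders summed in place of averaged, it supplied 16.0% in neuroblast-biased brains and 13.8% in neuron-biased brains.

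**Figure D5:**
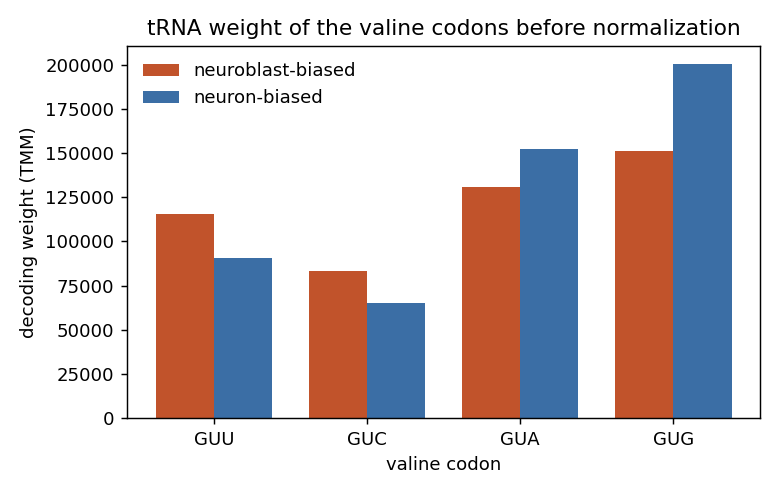
Decoding weight (TMM, before division by the largest weight) of the valine codons in neuroblast-biased and neuron-biased brains. GUU and GUC have the taller bar in neuroblast-biased brains, GUA and GUG in neuron-biased brains, and GUG is the tallest in both. Isodecoders of an anticodon are averaged, and GUA then exceeds GUU in both groups. Summing them turns this order, with GUU at 231162 against 130680 for GUA in neuroblast-biased brains. In neuron-biased brains the summed weights are 181568 for GUU and 152073 for GUA. Relative to the nuclear median the difference of GUA turns to 0.05 on the log2 scale.

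After division by the largest weight, the tAI of GUG was 1 in both groups by construction. GUU had the largest difference by subtraction, 0.311, with a tAI of 0.763 in neuroblast-biased brains and 0.453 in neuron-biased brains. The tAI of GUA was 0.863 in neuroblast-biased brains and 0.758 in neuron-biased brains, a difference of 0.105, although its own weight was lower in neuroblast-biased brains on the values as deposited. The normalized value for GUA was thus higher because the weight of GUG, its denominator, had a log2 ratio of −0.41, against −0.22 for GUA. The tAI differences of GUU and GUC hold that denominator too, beside the log2 ratio of their own weights, 0.35 for each. With summed isodecoders the tAI of GUA was 0.501 in neuroblast-biased brains and 0.431 in neuron-biased brains, a difference of 0.069. A further setting had no penalty for inosine reading C, and left out wobble by Val-TAC and inosine reading A. There GUA itself had the largest weight in both groups, so its difference was 0 by construction. With the main penalties and averaged isodecoders, the tAI of GUC was 0.550 in neuroblast-biased brains and 0.326 in neuron-biased brains.

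The table also holds the mitochondrial valine tRNA, mito:Val-TAC, which serves translation inside mitochondria and is not part of the nuclear pool. Its mean TMM was 66637 in neuroblast-biased brains and 87399 in neuron-biased brains, a log2 ratio of −0.39. This was the lowest ratio of the 22 mitochondrial tRNAs, whose median was 0.79, and 3 of them were lower in neuroblast-biased brains. The mitochondrial and the nuclear Val-TAC tRNA were both lower on the values as deposited, while relative to the nuclear median mito:Val-TAC stood at −0.12 and Val-TAC-1-X at 0.05.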

How the data were processed

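tRNA was sequenced by hydro-tRNAseq in 3 neuroblast-biased and 3 neuron-biased samples of larval brains, grouped by their titles. According to the methods, the authors trimmed reads (cutadapt), aligned them to collapsed mature tRNA sequences allowing mismatches (subread-align), kept alignments of sufficient mapping quality and split multi-mapped reads between references (featureCounts). NOISeqBio was used for TMM normalization and batch correction. The deposited values used here are the mean TMM of each group, a normalized signal. The deposited log2 fold changes, q-values, theta and probability scores are the authors' comparisons and were not used.

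From the means, log2 ratios, pool sums, shares and codon weights were computed with Python 3.11.15, numpy 2.4.6 and pandas 2.3.3 and plotted with matplotlib 3.10.9. The functions were tested on simulated data. No pseudocount or filter was applied. Genes were matched by name to RefSeq, Release 6, for all 84 nuclear isodecoders. All 5 members are named. The members, comparisons and alternatives were chosen with earlier results of these data known. The planned tests on values per sample, gene sequences and valine codon usage were not run, because only group means and a table of gene names and positions were used. The depth per library is unknown, so no interval is given.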

Additional observations from a re-analysis of the deposited data

How the results depend on the processing

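No paired analysis was possible because the table holds 1 mean per group, and replicates could not be left out in turn for the same reason. With no replicate error, shifts were judged against the rounding of the values. With the nuclear median set to 0, the log2 ratio was 0.62 for the Val-AAC pool, −0.20 for Val-CAC and 0.048 for Val-TAC, which turned its direction. With equal summed nuclear TMM these values were 0.65, −0.17 and 0.080, and Val-TAC turned as well. Under either scaling 2 isodecoders passed a log2 ratio of 0.5 in size, in place of 1. At a threshold of a 1.5-fold change, 0 passed on the values as deposited. Averaging the log2 ratios of isodecoders gave 0.39 for Val-AAC, −0.50 for Val-CAC and 0.88 for their balance, and the balance without the less abundant isodecoders was 0.80. The same averaging gave −0.28 for the balance of alanine, 0.57 for serine, −0.42 for threonine and −0.00018 for proline, which changed sign. Averaged rather than summed over isodecoders, the shares of the valine pool were 32.5% in neuroblast-biased and 23.0% in neuron-biased brains for Val-AAC, 30.8% (neuroblast-biased) and 38.5% (neuron-biased) for Val-CAC, and 36.7% (neuroblast-biased) and 38.5% (neuron-biased) for Val-TAC. With summed pools, the tAI difference was 0.370 for GUU, 0.267 for GUC and 0.069 for GUA, against 0.311, 0.224 and 0.105 with averaged ones. A further setting used averaged pools with no penalty for inosine reading C, and left out wobble by Val-TAC and inosine reading A. The difference there was 0.288 for GUU, 0.288 for GUC, 0 for GUA and −0.160 for GUG. A pseudocount of 100 and a minimum mean TMM of 5000 left the values they were applied to unchanged within that rounding. The directions of Val-AAC and Val-CAC held under all alternatives run. For Val-AAC this was fixed in advance, because both rescalings raise every ratio. Averaging or a pseudocount cannot turn a direction that all isodecoders of an anticodon share. For Val-CAC only the rescalings could have turned the direction.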
